A study of Mus musculus with 6 samples.

Results

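The cells described here are subepithelial fibroblasts of the mouse small intestine in which a panel of 5 genes that includes Frmd5, Lrat and Ntf3 gave more unique transcripts (UMIs) than a second panel of 5 genes. Droplet 3′ libraries had been made from single tdTomato+ cells sorted from lamina propria, with 2 libraries each for proximal jejunum and distal ileum and 1 each for cecum and large intestine. A barcode was kept as a cell when it had between 1000 and 7500 genes, between 2500 and 40000 UMIs and a mitochondrial part below 10%, which left 102534 cells in all 6 libraries and 76832 in the 4 small intestinal ones. A kept cell passed the subepithelial gate with a UMI of at least 2 of Agt, Wnt4 and Mmp10 and none of Lgr5, Bmp7, Prox1, Ptprc or Myh11. Panel A was Frmd5, Pde1c, Lrat, Ntf3 and Cntnap3, panel B was Itga8, Cxcl14, Il34, P2rx1 and Tmem178, and a gated cell was a member when its panel A sum was 2 or more and above its panel B sum. The rule gave 2504 members among 5916 gated cells, against 3302 in which the panel B sum was 2 or more and the larger (panel B cells) and 110 in which neither held. The members numbered 495 and 1073 in proximal libraries 1 and 2 and 167 and 769 in distal libraries 1 and 2.

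All mice were Flare-TSLP on the C57BL/6 background, in which a tdTomato reporter cassette is placed at the Tslp locus, so every library, including those used as a contrast here, carried the reporter and passed the same tdTomato gate. The study's methods give female and male mice 8 to 12 weeks old. The labels named no treatment, and tissue was the one variable that they gave. The libraries had no reporter-negative counterpart. Each library pooled cells carrying 3 hashtag antibodies, with no map from hashtag to mouse in the sources used here, so the library was taken as the replicate and p-values measure the spread between libraries. The replicate number also fixed the hashtag set: both libraries numbered 1 shared one set and both numbered 2 the other. Gene UMIs per small intestinal library ranged from 168250954 to 206827504. Libraries shared 38 to 118 kept barcodes pairwise, none of them a member in both libraries of the pair. The reporter transcript itself was sparse, with 301 to 1081 UMIs in a whole small intestinal library, so the sort gate could not be checked cell by cell.

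Subepithelial fibroblasts lie directly beneath the epithelium and pass Wnt, BMP, EGF and retinoid signals to it. BMP signals generally favour differentiation on the villus, Wnt and R-spondin signals sustain the crypt, and Hedgehog ligands made by the epithelium signal back to the fibroblasts. Of the genes that name the subset, Lrat encodes lecithin retinol acyltransferase, which stores retinol as ester, Ntf3 encodes the secreted neurotrophin NT-3, and Frmd5 encodes a FERM-domain protein at the cell cortex. Pde1c is a calcium- and calmodulin-dependent phosphodiesterase of cyclic nucleotides, and Cntnap3 is a contactin-associated cell surface protein.

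On mouse build GRCm39, Frmd5 lies at chr2:121375076-121637568 and Lrat at chr3:82799886-82811288, both on the minus strand. Ntf3 (chr6:126078375-126143873) and Pde1c (chr6:56046784-56629472) are both on the minus strand of chromosome 6, far apart, and Cntnap3 is at chr13:64883290-65051875 on the minus strand. The gate genes lie at chr8:125279301-125296716 (Agt, minus strand), chr4:137004373-137027037 (Wnt4, plus strand) and chr9:7502353-7510241 (Mmp10, plus strand). UMIs of a library were summed over whole genes, introns and exons not being told apart in the files, so a level below is in CPM, the UMIs of a gene scaled to the total of the cells summed, and is compared between cells and never between genes.

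Because the rule used these cells' own counts, whatever sets members against panel B cells is a description of how the rule divided the gate. A threshold on an adjusted p, where used for this contrast below, sorts genes within that description and is no independent test. Frmd5 stood at 426, 331, 197 and 259 CPM in members of proximal 1, proximal 2, distal 1 and distal 2, an order kept in every list of 4 values here, against 88.8, 90.0, 32.6 and 53.2 in panel B cells. Lrat gave 759, 964, 566 and 622 in members and 450.1, 596, 317 and 326 in panel B cells, with 204, 245, 73.6 and 107 in trophocyte-gated cells of the same libraries, fibroblasts of the deeper mucosa gated on 2 of Ackr4, Grem1 and Dkk2 with no gate gene. Pde1c gave 1155, 1093, 838 and 896 against 609, 592, 399 and 425. For these 3 genes every member value exceeded the panel B value of its own library.

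Ntf3, although part of the name of the subset, divided the gate poorly. It gave 382, 458, 282 and 403 CPM in members and 301, 476, 197 and 263 in panel B cells, so proximal 2 ran the other way. When members were chosen again with each panel A gene left out of the panel, the ratio of members to panel B cells for that gene was 2.14 to 2.99 over the 4 libraries for Frmd5, 1.31 to 1.60 for Lrat, 1.34 to 1.62 for Pde1c and 1.21 to 4.69 for Cntnap3. For Ntf3 it was 0.779 to 1.22, on both sides of equality. The cells are therefore described by their rule, as a division by Frmd5, Lrat, Pde1c and Cntnap3 on the higher side and the panel B genes on the lower. Ntf3 is a gene of the whole gate more than of the members. Itga8 averaged 148 CPM in proximal and 159 in distal members, against 973 and 777 in panel B cells. Cxcl14 averaged 463 and 427 against 1226 and 995, and Il34 162 and 177 against 703 and 595. P2rx1 averaged 127 and 127 against 370 and 287, and Tmem178 112 and 110 against 552 and 402. The rule itself sets these levels.

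Cntnap3 was higher in members than in panel B cells of every library, by ratios that varied widely. Members gave 89.3, 92.0, 87.8 and 299.6 CPM and panel B cells 12.7, 66.3, 37.5 and 176, and distal 2 was the highest library on both sides of the rule. Of the gate genes, Wnt4, a secreted Wnt ligand, stood at 184, 202, 201 and 173 in members and 418, 494, 371 and 385 in panel B cells, and Mmp10, stromelysin-2, at 1955, 1707, 1707 and 1779 and 2136, 2318, 1985 and 1936. Agt, angiotensinogen, ran the other way, with 125, 147, 144 and 128 against 70.4, 110.2, 89.1 and 92.2. The members are thus the Wnt4-lower side of the subepithelial gate in every library.

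**Figure D1:**
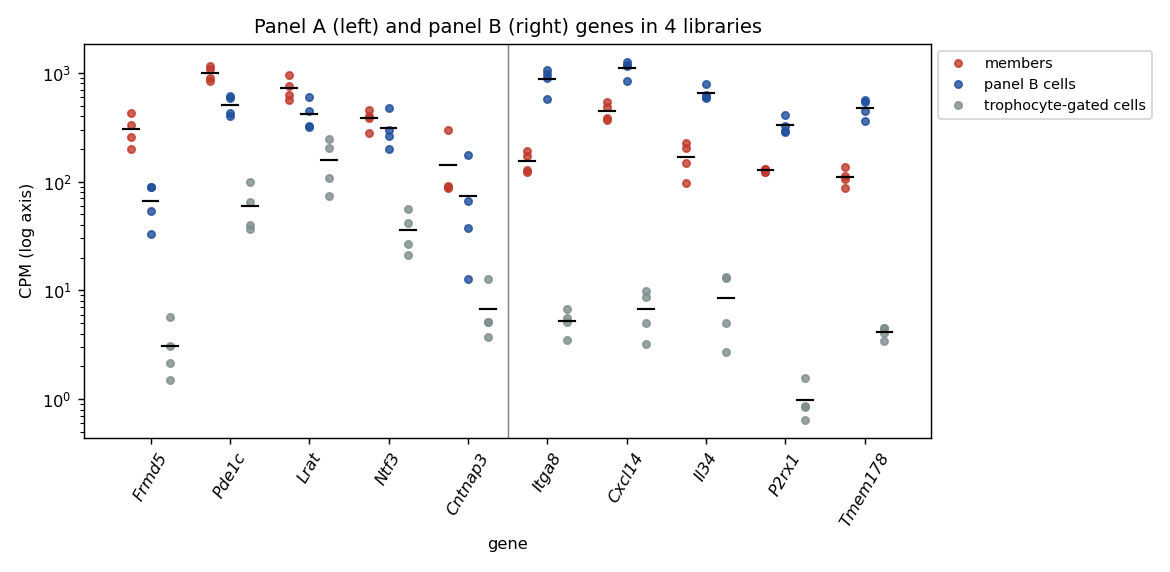
CPM (vertical axis, log scale) of the 5 panel A genes (left) and 5 panel B genes (right) in members, panel B cells and trophocyte-gated cells, with 1 point per small intestinal library and a bar at the mean of 4. Frmd5 separates members from panel B cells, while the Ntf3 points of members, 282 to 458, lie within the 197 to 476 of panel B cells.

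The panel share, A divided by the sum of A and B, formed 1 continuous range in each library, with no gap at the dividing value of 0.5. In distal 1 the most populated interval of that range was 0.2 to 0.3, with 24.2% of the gated cells that held a panel UMI, and in proximal 2 it was 0.9 to 1.0, with 21.9%. Median panel A sums of members were 27, 30, 19 and 22 UMIs, with panel B sums of 11, 7, 9 and 7. Members with a panel A sum at most 3 UMIs above B made up 14.5% of the members of proximal 1, 5.31% of proximal 2, 32.3% of distal 1 and 12.4% of distal 2. Distal 1 thus had the fewest members and the largest part of them next to the dividing line.

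**Figure D2:**
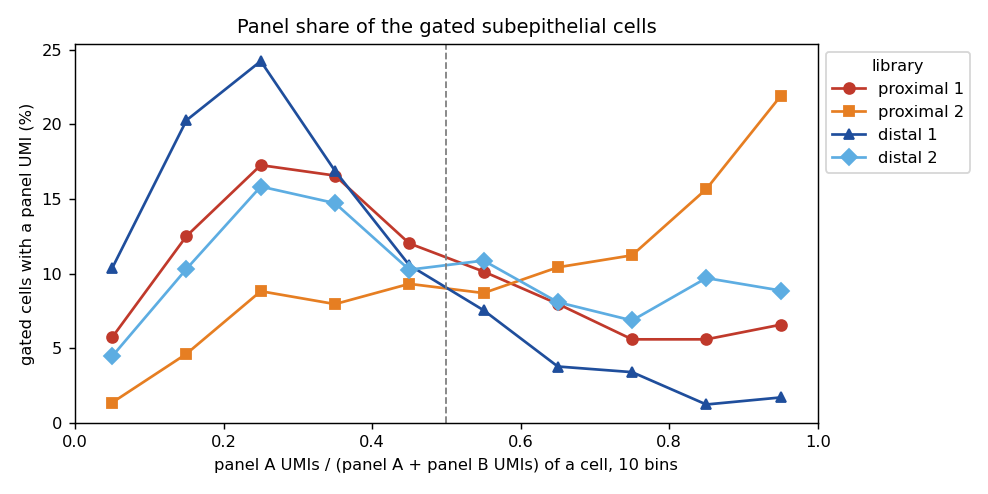
Percent of gated cells with at least 1 panel UMI (vertical axis) in each interval of 0.1 of the panel share A/(A+B) (horizontal axis), 1 line per small intestinal library, with the dividing value of 0.5 as a dashed line. The 4 distributions run on across the line, with peaks of 24.2% at 0.2 to 0.3 in distal 1 and 21.9% at 0.9 to 1.0 in proximal 2.

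Near the line the panel sums are nearly equal by the rule, which sets the levels of the panel genes there. Frmd5 averaged 92.5 CPM in the 278 members at most 3 UMIs inside the line and 95.3 in the 242 panel B cells at most 3 outside it, against 354 in members and 41.0 in panel B cells beyond a 2-fold difference between the panel sums. Lrat averaged 526 inside and 581 outside, against 726 and 337 far from the line. Adamdec1, which encodes a secreted metalloprotease-like protein and is not in the rule, averaged 5114 and 4663 near the line against 7671 and 3032 far from it.

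When gated cells were split into 5 bins of panel share, several genes outside the rule moved in 1 direction through every bin. Adamdec1 averaged 2732, 3377, 4373, 6568 and 8129 CPM from the lowest share to the highest and rose from bin to bin in 4 of 4 libraries. Ltbp2, a latent TGF-β binding protein, averaged 229, 136, 55.7, 9.83 and 2.54, and Id1, a BMP target gene, 226, 144, 115, 70.6 and 31.4, and both fell from bin to bin in 4 of 4 libraries. Ntf3 averaged 184, 321, 438, 415 and 297 and was highest in the middle of the range. Lrat averaged 206, 447, 630.5, 746 and 698, so it too stopped rising before the highest bin, while Frmd5 climbed throughout from 19.2 to 396. The bins held 943, 1740, 1159, 910 and 1138 cells, and the smallest bin of any library held 28.

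**Figure D3:**
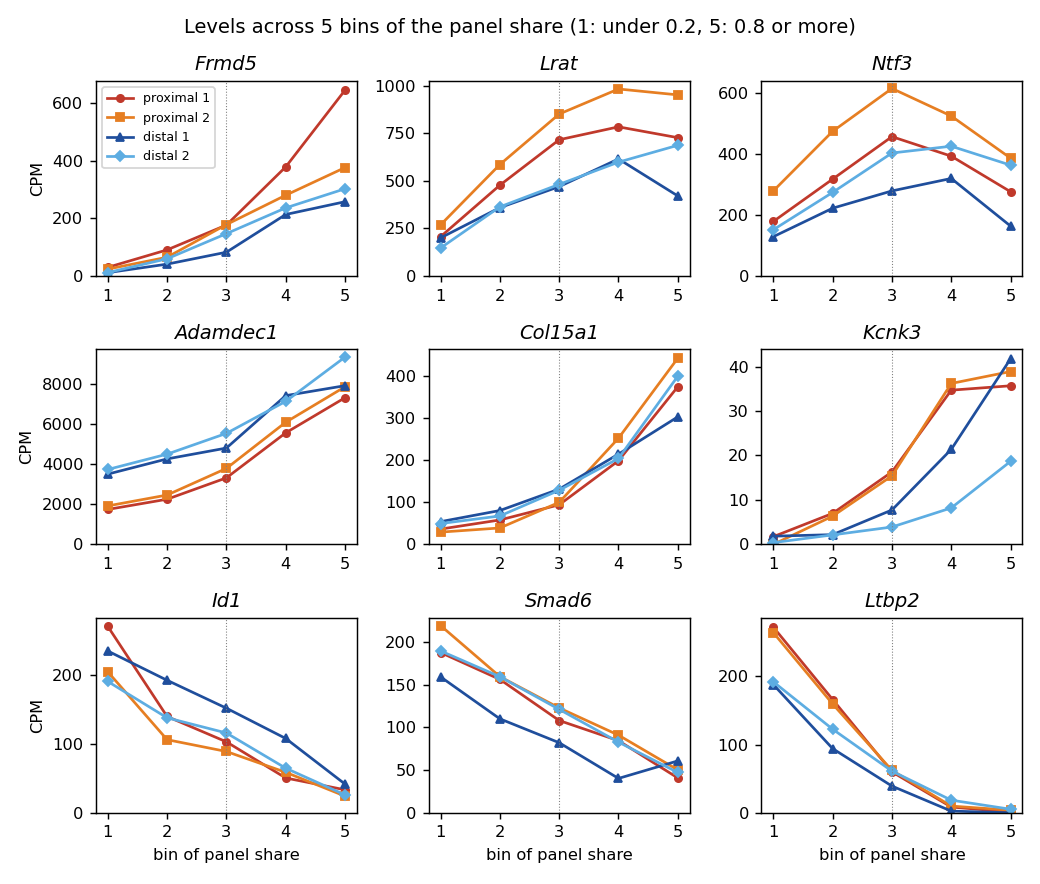
CPM (vertical axes, linear) against 5 bins of panel share (horizontal axes, bin 1 under 0.2 and bin 5 0.8 or more) for 9 genes, with 1 line per small intestinal library and a dotted line at the bin that holds the dividing value. As means over libraries, Frmd5 climbs from 19.2 to 396 and Ltbp2 drops from 229 to 2.54, while Ntf3 is highest in bin 3 at 438.

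The label of subepithelial fibroblast was checked against markers that the rule left free. Pdgfra, a receptor that marks intestinal mesenchyme, stood at 362, 356, 371 and 369.9 CPM in members. The sum of 7 fibroblast markers was 13404 to 16124 in members, 10049 to 13278 in panel B cells and 29516 to 34076 in trophocyte-gated cells. Of 10 subepithelial markers, 3 are gate genes, which trophocyte-gated cells lack by their own gate. The sum of the other 7 was 668 to 736 in members, 647 to 843 in panel B cells, 551 to 649 in trophocyte-gated cells and 7749 to 13184 in villus tip telocyte-gated cells. Pdgfra made up much of that sum in members and most of it in trophocyte-gated cells, where it stood at 552, 539, 489 and 531. Nrg1, neuregulin-1, gave 262, 234, 202 and 209 in members against 4.59, 5.64, 3.29 and 4.52 in trophocyte-gated cells, and Procr, the protein C receptor, 26.3, 31.3, 27.4 and 25.5 against 3.55, 3.01, 4.37 and 4.31. Foxl1, the transcription factor of telocytes, was low, with 12.7, 12.9, 3.66 and 9.84 in members against 0.103, 0.149, 0.0784 and 0.105 in trophocyte-gated cells. Wnt5a, a Wnt ligand of villus tip telocytes, gave 33.3, 42.2, 25.6 and 30.9, against 820.3, 467, 1124 and 499.6 in villus tip telocyte-gated cells. By the part of cells with a UMI, Wnt5a did not part members from trophocyte-gated cells in the proximal libraries. In proximal 1 and 2, 22.2% and 29.5% of members held a Wnt5a UMI against 27.1% and 30.8% of trophocyte-gated cells. In distal 1 it was 17.4% against 11.3%, and distal 2 is not given here. F3 and Sox6 differed from telocyte-gated cells by log2 -4.02 ± 0.25 and -7.01 ± 0.26. These 2 genes are not set against trophocyte-gated cells here, so the check against those cells does not cover all 7 markers.

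Markers of other cell types were summed in the same way. Lgr5 and Bmp7, which mark villus tip telocytes, were at 0 in all members by the rule itself. Rspo4, also listed as such a marker, was at 0 in members, in panel B cells and in villus tip telocyte-gated cells, and so checks nothing. The sum of 6 trophocyte markers was 486 to 1128 CPM in members and 429 to 846 in panel B cells, against 3926 to 4214 in trophocyte-gated cells, whose gate used 3 of these 6 genes and so partly fixes their sum. The sum of 7 epithelial markers was 4.14 to 17.7 in members and 8.97 to 82.6 in panel B cells, that of 6 blood endothelial markers 39.6 to 178 and 171 to 372, and that of 7 immune markers 49.4 to 152 and 133 to 278. By their medians over libraries these 3 sums were higher in panel B cells. The sum of 6 pericyte markers was 283 to 666 in members and 191 to 359 in panel B cells, that of 4 universal fibroblast markers 88.8 to 143 and 36.8 to 81.2, and that of 5 glial markers 197 to 253 and 155 to 248. These 3 sums had their higher medians in members. In the fit below only 1 gene of each of these 3 lists passed the threshold, Rgs5, Cd55 and Gpm6b in that order. The call of Gpm6b was lost under 7 of 13 alternatives. The part of any of these markers in the differences below was not tested. Median depth was close on both sides, at 9344, 10318, 8439 and 8935 UMIs in members and 8630.5, 9827, 8046 and 9050 in panel B cells. Barcodes with several hashtags, which can be doublets, made up 12.5%, 8.29%, 19.8% and 12.1% of members and 12.0%, 6.74%, 19.7% and 12.5% of panel B cells.

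Tslp, at whose locus the reporter sits, gave 0.779, 0.155, 1.22 and 0.647 CPM in members, too few transcripts to order the libraries. The tdTomato transcript gave 1.75, 0.853, 1.83 and 1.04. Glp2r, the receptor of the intestinotrophic hormone GLP-2, gave 19.3, 15.9, 28.0 and 15.7 in members and 37.3, 43.4, 53.7 and 42 in trophocyte-gated cells, with every member library below every trophocyte one. It was lower still beside villus tip telocyte-gated cells, with a member minus telocyte log2 difference of -4.47 ± 0.18. Bmp4 and Bmp5, both BMP ligands, gave 355, 408, 329 and 416 and 343, 348, 361 and 467.

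To describe what else the division carried, UMIs were summed per library over members and over panel B cells and fitted for all 13743 genes with edgeR, keeping the library as a block. Past an adjusted p of 0.05, 1554 genes were higher in members, which is 11.3% of those tested, and 1447 were lower, which is 10.5%. These shares are the background for every list below, and since the contrast was built from the same cells nothing is read from a count. Named differences are log2 values, members minus panel B cells, ± the standard error of the fit over 4 libraries. The median over all tested genes was -0.01.

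The largest differences on the higher side included a channel, a collagen and a receptor. Kcnk3, a two-pore potassium channel, gave 32.1, 36.9, 18.9 and 12.0 CPM in members and 6.27, 5.71, 2.99 and 1.77 in panel B cells, a difference of 2.59 ± 0.13. Col15a1, a basement membrane zone collagen, gave 241, 353, 199.9 and 273 against 56.0, 49.9, 79.7 and 74.1, a difference of 2.06 ± 0.17. Bdkrb2, the bradykinin B2 receptor, gave 26.9, 29.2, 13.4 and 19.9 against 5.36, 5.21, 4.11 and 6.51, a difference of 2.07 ± 0.16. In all 3 the lowest member library lay above the highest panel B library. The same held for Syt13 at 2.72 ± 0.20, a synaptotagmin, Phf24 at 2.69 ± 0.19, Lrrc55 at 1.99 ± 0.20, a potassium channel subunit, and for Sncaip (2.33 ± 0.10), P3h2 (2.22 ± 0.15, a prolyl hydroxylase of collagen) and Myocd (1.92 ± 0.20, a coactivator of smooth muscle genes). Sncaip, P3h2 and Myocd overlap a predicted gene on the same strand, from which reads may be shared.

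On the lower side the largest differences included a growth factor binding protein, a neuropeptide receptor and a laminin. Ltbp2 gave 12.1, 9.77, 15.2 and 19.9 CPM in members and 177, 150.0, 118 and 130.3 in panel B cells, a difference of -3.39 ± 0.17. Tacr1, the substance P receptor, gave 11.1, 20.1, 7.31 and 36.5 against 174, 185, 64.1 and 178, a difference of -2.98 ± 0.19. Lama5, the laminin α5 chain, gave 5.45, 2.02, 3.66 and 6.86 against 32.6, 29.4, 19.4 and 37.7, a difference of -2.86 ± 0.20. All 3 separated the 4 member libraries from the 4 panel B libraries without overlap. Ahrr, the repressor of the aryl hydrocarbon receptor, gave 15.2, 7.37, 12.8 and 18.1 against 92.0, 93.9, 60.8 and 91.7, a difference of -2.79 ± 0.18. Ntm (-3.10 ± 0.13, a cell adhesion protein, with a predicted gene on its strand), Exoc3l2 (-2.85 ± 0.19), Sptssb (-2.48 ± 0.22, a subunit of serine palmitoyltransferase) and Serpina3f (-2.43 ± 0.15) were lower as well.

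Plvap and Fabp1 were lower alongside markers of other cells. Plvap, a protein of fenestrated endothelium, gave 61.3, 21.7, 33.5 and 19.3 in members and 285, 236, 181 and 115 in panel B cells, a difference of -2.70 ± 0.16, and it is one of the 6 blood endothelial markers whose sum was higher in panel B cells. Of those 6 it was the only one past the threshold. Fabp1, the fatty acid binding protein of enterocytes, gave 2.73, 1.32, 1.83 and 0.906 against 49.7, 24.2, 9.59 and 3.06, a difference of -3.78 ± 0.28, and Reg3b and Krt8 of the same epithelial list were also lower, at -1.92 ± 0.34 and -1.67 ± 0.46, the call of Krt8 being lost under 5 of 8 alternatives. The epithelial sum in panel B cells ran from 8.97 to 82.6 CPM. It includes Fabp1, Reg3b and Krt8, so their moving with it adds nothing.

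**Figure D4:**
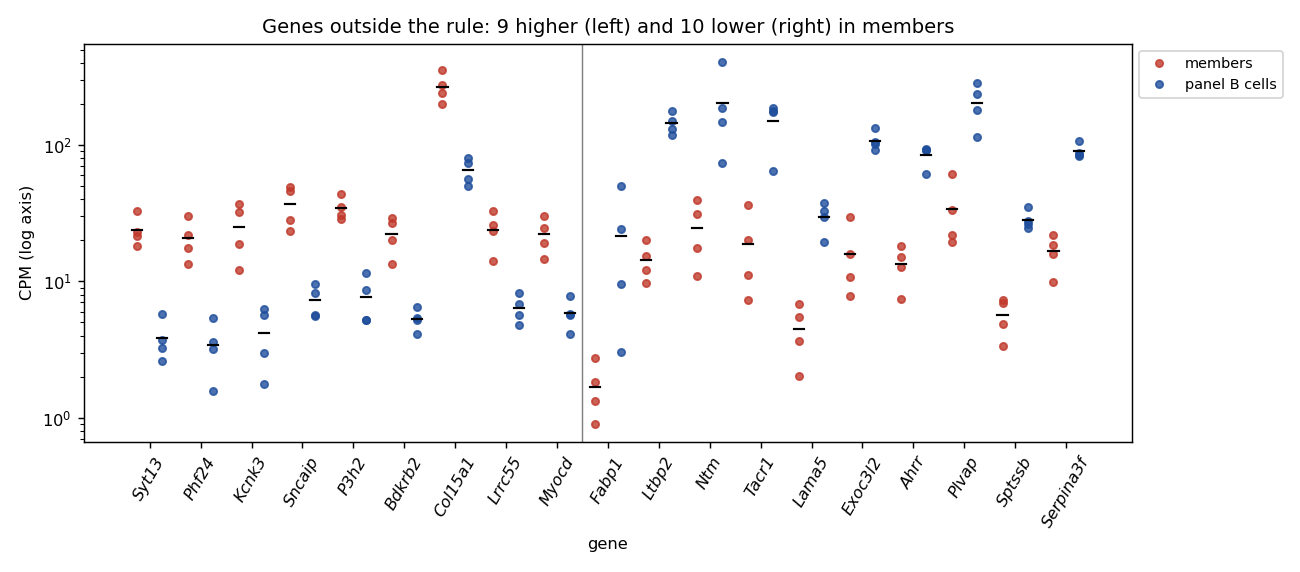
CPM (vertical axis, log scale) of genes outside the rule with the largest differences (9 higher on the left, 10 lower on the right) in members and in panel B cells, with 1 point per small intestinal library and a bar at the mean of 4. The genes were chosen for showing no overlap between the 4 member and the 4 panel B libraries, as for Ltbp2 at 9.77 to 19.9 against 118 to 177.

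Id1, Id3 and Smad6, which BMP signalling induces, were lower in members than in panel B cells, in the contrast that the rule itself made. Id1 gave 60.5, 42, 123 and 59.0 CPM in members and 166, 114, 199 and 147 in panel B cells, a difference of -1.24 ± 0.10. Id3 gave 707, 437, 932 and 427 against 1399, 998, 1579 and 932, a difference of -1.0 ± 0.06. Smad6, an inhibitor of BMP receptors that the pathway itself induces, gave 71.4, 68.5, 54.9 and 72.7 against 158, 159, 124 and 162, a difference of -1.16 ± 0.05. In each of the 4 libraries these 3 genes were lower in members. Smad7, a related inhibitor, differed by -0.80 ± 0.06, Id2 by -0.95 ± 0.06, Id4 by -0.65 ± 0.11, Smad9 by -0.61 ± 0.10 and Bambi, a decoy receptor, by -0.97 ± 0.11.

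Stretches of the promoters of these genes are shown because all of them lay on the lower side. Of these 8 genes, 5 had a promoter (250 bases before to 50 after the start) in the RefSeq table of build GRCm38.p6. The palindrome GTCTAGAC, the Smad binding box in its doubled form, was searched on both strands and occurred in Smad6 alone of the 5, and in 0.213% of all 32851 promoters. GGCGCC, a GC-rich element bound by BMP-activated Smads and also a palindrome, occurred in 3 of the 5 and in 11.9% of all promoters. The 2 motifs do not overlap in these windows. Each window below is 30 bases, 5′ to 3′ on the strand of the gene, with the motif in capitals, and a match is a description of letters and not of binding. Smad6 is read from chr9:64022045-64022074 on the minus strand, Smad9 from chr3:54755520-54755549 on the plus strand, Id2 from chr12:25096305-25096334 on the minus strand and Id4 from chr13:48260957-48260986 on the plus strand.
Smad6: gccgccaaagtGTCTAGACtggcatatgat
Smad9: cacggccgcctGGCGCCcttccagcgcggc
Id2: caggccccctgGGCGCCcagcgcacactgt
Id4: tcgggttgcccGGCGCCccgccctcgccac
Id1, Smad7 and Bambi had no entry.

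Ligands, antagonists and receptors of the family lay on both sides. Bmp4 differed by 0.25 ± 0.06 and Bmp5 by 0.47 ± 0.07, both slightly higher in members. The antagonist Fst, follistatin, gave 8.95, 2.64, 15.2 and 0.518 CPM in members and 2.28, 0.672, 0.498 and 0.296 in panel B cells, a difference of 2.62 ± 0.47 at levels that varied widely between libraries, and Fstl3, follistatin-like 3, gave 11.3, 14.2, 12.8 and 12.2 against 4.90, 4.54, 8.47 and 5.13, a difference of 1.22 ± 0.17. The type I receptors split, with Bmpr1b at 1.38 ± 0.23 and Acvrl1 at -1.11 ± 0.08. Bmper, an extracellular BMP modulator, differed by -1.0 ± 0.07 and Tgfb3, a TGF-β ligand, by 0.90 ± 0.09. In the BMP and TGF-β list 40 of 45 listed genes were tested, 17 were higher and 14 lower past the threshold, with a median log2 difference of -0.00.

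Gli1 and Hhip, both targets of Hedgehog signalling, were higher in members. Gli1, the target transcription factor most used as a readout, gave 27.1, 35.1, 25.6 and 23.2 CPM in members and 17.8, 19.8, 14.2 and 18.4 in panel B cells, a difference of 0.64 ± 0.10. Hhip, the secreted Hedgehog inhibitor, gave 18.5, 21.3, 10.4 and 6.34 against 10.4, 7.05, 2.12 and 4.14, a difference of 1.19 ± 0.21. Every library was higher in members for both genes, though the ranges of Hhip overlapped between libraries. The receptor Ptch1 differed by 0.38 ± 0.05, the signal transducer Smo by 0.22 ± 0.05, the coreceptor Gas1 by 0.82 ± 0.13 and the transcription factors Gli2 and Gli3 by 0.57 ± 0.05 and 0.38 ± 0.05, while the coreceptor Boc did not pass, at 39.3, 33.0, 35.4 and 30.3 in members and 30.7, 26.4, 32.5 and 30.9 in panel B cells. Transcription factors outside the pathway moved both ways, with Sox9 at 1.57 ± 0.21, Runx1 at -1.51 ± 0.08 and Tbx3 at -1.40 ± 0.06. In the list of Hedgehog genes and developmental transcription factors 38 of 50 listed genes were tested, 14 were higher and 11 lower past the threshold, with a median log2 difference of 0.13.

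In the Wnt list Nkd1 and Nkd2 stood lower. Nkd1, which is induced by Wnt and restrains it, gave 18.5, 14, 22.6 and 18.5 CPM in members and 41.7, 48.9, 36.2 and 42.3 in panel B cells, a difference of -1.31 ± 0.13, and its relative Nkd2 differed by -1.51 ± 0.19. Rspo3, an R-spondin that strengthens Wnt signals in the crypt, gave 52.7, 49.9, 54.9 and 60.7 against 133, 114, 116 and 115, a difference of -1.11 ± 0.07. Both genes separated members from panel B cells in all 4 libraries. The receptor Fzd2 was higher at 1.16 ± 0.08, as was the secreted antagonist Sfrp1 at 0.70 ± 0.06, with Wnt2b lower at -0.63 ± 0.11. Axin2, a widely used target of Wnt signalling, gave 14.6, 13.0, 7.31 and 12.7 against 15.5, 12.3, 12.7 and 12.9 and did not pass the threshold. Of the Wnt genes 21 of 35 listed genes were tested, 8 were higher and 6 lower past the threshold, with a median log2 difference of 0.31.

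Around Lrat, other retinoid genes took both directions. Aldh1a2, which makes retinoic acid, gave 202, 211, 158 and 133 CPM in members and 168, 174, 116 and 104 in panel B cells, a difference of 0.34 ± 0.05. Rdh10, which oxidizes retinol, gave 637, 725, 568 and 682 against 660.4, 827, 576 and 728 and did not pass. The nuclear receptors were lower, Rarb, itself a retinoic acid target, by -0.71 ± 0.07, Rarg by -0.76 ± 0.14 and Rxra by -0.98 ± 0.07. Rbp2, an enterocyte retinol binding protein, gave 0.389, 1.01, 6.71 and 0 against 16.8, 9.07, 6.85 and 2.46, a difference of -3.0 ± 0.57 with distal 1 nearly level. It is not among the epithelial markers summed above, and the part of epithelial RNA in its difference was not tested. Among retinoid genes 17 of 28 listed genes were tested, 5 were higher and 5 lower past the threshold, with a median log2 difference of -0.08. Lrat, as a gene of the rule, was not among those tested.

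Beside Ntf3, the neurotrophic list had genes on both sides. Mdk, the growth factor midkine, gave 277, 326, 306 and 221 CPM in members and 111, 156, 172 and 126 in panel B cells, a difference of 1.02 ± 0.08. Gfra2, the neurturin receptor, differed by 1.11 ± 0.18, Artn, the GDNF family ligand artemin, by 0.91 ± 0.28 and Nrg2, a neuregulin, by -0.96 ± 0.17. Artn was detected at no more than 2.85 CPM, and its call was lost under 8 of 12 alternatives. In that list 12 of 23 listed genes were tested, 3 were higher and 2 lower past the threshold, with a median log2 difference of 0.19.

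Axon guidance genes took both directions too. Ntn1, netrin-1, gave 295, 370.2, 212 and 238 CPM in members and 103, 102, 76.3 and 81.9 in panel B cells, a difference of 1.62 ± 0.07. Its receptor Unc5b gave 75.9, 71.4, 71.3 and 111 against 247, 274, 180.3 and 293, a difference of -1.61 ± 0.09, so ligand and receptor took opposite sides of the gate in every library. Efnb2, ephrin-B2, differed by 1.62 ± 0.19 and the semaphorin Sema6a by 1.23 ± 0.10. In the list 33 of 41 listed genes were tested, 12 were higher and 7 lower past the threshold, with a median log2 difference of 0.22.

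Receptors of hormones and neurotransmitters were divided likewise. Vipr2, a receptor of vasoactive intestinal peptide, gave 36.4, 42.5, 53.6 and 35.5 CPM in members and 10.4, 14.9, 19.8 and 13.6 in panel B cells, a difference of 1.54 ± 0.09. Chrm3, the M3 muscarinic receptor, gave 109, 137, 98.7 and 95 against 47.7, 44.5, 29.9 and 35.6, a difference of 1.48 ± 0.08, and Agtr1a, the receptor of angiotensin II, gave 131, 104, 109 and 102 against 49.3, 36.3, 75.8 and 46.2, a difference of 1.19 ± 0.13. The members thus held more transcript of these 3 receptors in each library, and less of the substance P receptor Tacr1. Ednrb, an endothelin receptor, differed by 1.78 ± 0.41 and Adora1, an adenosine receptor, by 3.47 ± 0.47 from levels of at most 6.67 CPM. In the receptor list 30 of 59 listed genes were tested, 12 were higher and 8 lower past the threshold, with a median log2 difference of 0.25.

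Enzymes of cyclic nucleotide signalling, the family of the rule gene Pde1c, lay on both sides. Pde7b gave 171, 249, 170.1 and 201 CPM in members and 78.6, 79.8, 90.7 and 81.1 in panel B cells, a difference of 1.28 ± 0.10, Pde3a differed by 0.94 ± 0.06 and Pde9a by 1.11 ± 0.11. Pde4a, at -1.03 ± 0.09, and the cGMP-dependent kinases Prkg1, at -0.97 ± 0.08, and Prkg2, at -1.32 ± 0.17, were lower. In the list 32 of 35 listed genes were tested, 15 were higher and 7 lower past the threshold, with a median log2 difference of 0.15.

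Matrix genes and proteases added further separations. Fbln2, fibulin-2, gave 172, 229, 142 and 147 CPM in members and 44.6, 56.3, 56.0 and 48.9 in panel B cells, a difference of 1.76 ± 0.10. Tnxb, tenascin-X, gave 236, 245, 202 and 195 against 87.3, 69.5, 103 and 78.3, a difference of 1.41 ± 0.10. Lama2, the laminin α2 chain, gave 1485, 1541, 1637 and 1418 against 546, 478, 818 and 681, a difference of 1.31 ± 0.10, opposite in direction to Lama5. Among proteases and their inhibitors, Mmp16 differed by 1.27 ± 0.09, Serpine2 by 1.21 ± 0.09, Adamts2, a procollagen processing enzyme, by 1.13 ± 0.13 and the collagenase Mmp13 by -3.14 ± 0.28. In the matrix list 43 of 47 listed genes were tested, 16 were higher and 15 lower past the threshold, with a median log2 difference of 0.10. In the protease list 27 of 34 listed genes were tested, 14 were higher and 4 lower past the threshold, with a median log2 difference of 0.28.

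Growth factor and chemokine genes were divided by member of the family. Ereg, the EGF receptor ligand epiregulin, gave 121, 134, 79.2 and 107 CPM in members and 55.0, 52.6, 50.6 and 48.9 in panel B cells, a difference of 1.12 ± 0.09, and Igf1 differed by 1.10 ± 0.08 while its binding protein Igfbp3 differed by -0.95 ± 0.07. Pdgfrb, the receptor of PDGF-B, differed by -1.10 ± 0.05. In the growth factor list 34 of 42 listed genes were tested, 7 were higher and 10 lower past the threshold, with a median log2 difference of 0.12. Ccl11, eotaxin-1, gave 844, 1069, 794 and 728 against 257, 412, 413 and 265, a difference of 1.39 ± 0.10, and Il33, an alarmin, differed by 1.51 ± 0.16. The interferon-induced chemokines Cxcl9 and Cxcl10 were lower, by -1.92 ± 0.15 and -2.24 ± 0.07, beside an immune marker sum that was lower too. In the cytokine and chemokine list 31 of 45 listed genes were tested, 6 were higher and 11 lower past the threshold, with a median log2 difference of -0.14.

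Marker lists of neighbouring cells were counted in the same fit. In the fibroblast list 7 of 7 listed genes were tested, 5 were higher and 0 lower past the threshold, with a median log2 difference of 0.41, Lum leading at 0.76 ± 0.07. In the trophocyte list 6 of 6 listed genes were tested, 4 were higher and 1 lower past the threshold, with a median log2 difference of 0.41, with Cd34 at 0.63 ± 0.07, Grem1 at 0.52 ± 0.06 and Dkk2 at 0.48 ± 0.10 against Rspo3. Cd34 nonetheless stood at 73.0, 82.7, 131 and 84.0 CPM in members against 415, 428, 423 and 405 in trophocyte-gated cells. In the subepithelial list 7 of 10 listed genes were tested, 1 were higher and 2 lower past the threshold, with a median log2 difference of 0.07, with Nrg1 at -0.47 ± 0.06, Wnt5a at -0.59 ± 0.14 and Procr at 0.31 ± 0.08. The call of Wnt5a was lost under 4 of 13 alternatives and that of Procr under 6 of 13. In the myofibroblast list 5 of 7 listed genes were tested, 2 were higher and 1 lower past the threshold, with a median log2 difference of -0.13. Des, desmin, of that list differed by -1.41 ± 0.08 and Acta2, smooth muscle actin, by 0.44 ± 0.11. In the pericyte list 5 of 6 listed genes were tested and Rgs5 alone passed, at 1.22 ± 0.05, beside a median of -0.23. In the universal fibroblast list 3 of 4 listed genes were tested and Cd55 alone passed, at 1.32 ± 0.10, with a median of 0.79. Of 24 early response and heat shock genes, which can follow tissue dissociation, 3 were higher and 5 lower, with Klf2 at 0.67 ± 0.13, Klf4 at 0.58 ± 0.11, Ier3 at -0.94 ± 0.12 and Egr3 at -1.81 ± 0.58, the call of Egr3 being lost under 7 of 9 alternatives. None of the 6 tested cycling genes passed.

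Villus tip telocytes, subepithelial cells that were gated here on a UMI of at least 2 of Lgr5, Bmp7 and Bmp3 and that the rule keeps out of the members, were the other nearby comparison, with 42, 29, 23 and 10 cells per library. In an edgeR fit with the library as a block, 9646 genes were tested, of which 675 were higher in members (7.0%) and 761 lower (7.89%). The rule parted these cells by the same counts, so nothing is read from these counts either. Over the pooled libraries, Kctd8, a subunit of GABA-B receptors, gave 11 UMIs in members and 390 in telocyte-gated cells, a 1000.5-fold difference in the share of UMIs with a 95% counting interval of 553 to 2021. Cdhr17 gave 13 against 200, and Nalf1, a regulator of a sodium leak channel, 44 against 434. Avpr1a, a vasopressin receptor, gave 705 in members and 0 in telocyte-gated cells, at least 8.33-fold higher when the floor is 3 counts over the group, and Mctp2 634 against 0, at least 7.49-fold higher. Ano5, an anoctamin, gave 2487 against 2, 44.1-fold with an interval of 12.2 to 364. These intervals cover counting error only. Kctd8, Cdhr17 and Nalf1 were thus nearly undetected in members, while Avpr1a at 24.7, 17.6, 27.3 and 17.5 CPM was shared with panel B cells. Several genes named as higher in members than in panel B cells were higher still in telocyte-gated cells. The member minus telocyte log2 difference was -4.25 ± 0.20 for Bdkrb2, -6.03 ± 0.29 for Ednrb, -5.76 ± 0.31 for Fst, -1.03 ± 0.29 for Kcnk3 and -1.38 ± 0.33 for Syt13, while Col15a1 was higher in members at 1.46 ± 0.22. Marker lists moved in this comparison too, beside a median log2 difference of 0.02 over all tested genes. Of 22 early response and heat shock genes tested, 0 were higher and 18 lower in members, with a median of -1.56. All 5 tested blood endothelial markers were lower, with a median of -3.34, as were all 7 tested subepithelial markers, with a median of -4.02. Their part in the differences was not tested.

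The share of members among kept cells was the first quantity that could be compared between regions. It was 2.86% in proximal 1, 5.99% in proximal 2, 0.784% in distal 1 and 3.78% in distal 2, with exact 95% binomial intervals of 2.62 to 3.12, 5.64 to 6.34, 0.670 to 0.912 and 3.53 to 4.05. These intervals cover counting error only. Among cells of distal 2 with a single hashtag, the share ran from 2.63% to 5.77% over the hashtags. The proximal mean was 4.43% ± 2.21 (SD, n = 2) and the distal mean 2.28% ± 2.12 (SD, n = 2). The regions overlapped, since distal 2 was above proximal 1, and a two-sided exact permutation test gave p = 0.667, where the smallest p of this design is 0.333. Within replicate number, and so within hashtag set, the proximal library was higher in both cases, by 2.08 percentage points for number 1 and 2.20 for number 2. As a share of gated cells, members were 34.6%, 66.2%, 15.7% and 42.8%, with differences of 18.9 and 23.3 points within number.

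Hashtags within a library agreed more closely than libraries of 1 region. Members made up 28.2% to 41.3% of gated cells over the hashtags of proximal 1, 56.2% to 70.4% in proximal 2, 14% to 16.4% in distal 1 and 29.1% to 51.2% in distal 2. Hashtags did not overlap between the 2 proximal libraries, nor between the 2 distal ones. The spread between libraries of a region was therefore as large as the difference between regions, and fewer such cells and less panel A RNA per cell cannot be told apart by a rule on counts.

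**Figure D5:**
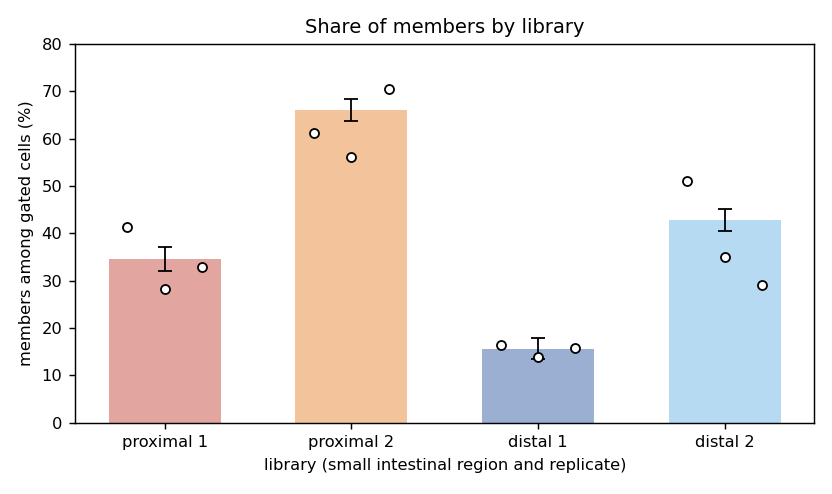
Percent of members among gated cells (vertical axis) by small intestinal library, with a bar per library, its exact 95% binomial interval (counting error only) and a circle for each of 3 hashtags. The bars stand at 34.6, 66.2, 15.7 and 42.8%, and the circles of 1 library do not reach those of the other library of its region.

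Whether members of the proximal and distal small intestine differed was tested on UMIs summed over members per library. The rule did not compare regions, although it used the panel genes to choose the members. Among 13542 genes, edgeR called 0 higher in the proximal members (0.0%) and 1 lower (0.00738%), with 387 genes at an unadjusted p under 0.05, and DESeq2 called 4 and 11. The one gene was Edil3 (chr13:88969142-89471904, plus strand), which encodes a secreted integrin ligand of the matrix. It gave 31.1 and 28.7 CPM in proximal members and 168 and 215 in distal members, a log2 difference of -2.71 ± 0.18 with an adjusted p of 5.6e-03 by edgeR. The regions were far apart beside the spread of their libraries. Panel B cells gave 14.1 and 14.8 against 61.5 and 84.5 and trophocyte-gated cells 112, 193, 294 and 535, in the same direction, and the interaction of region and subset did not pass for this gene. Edil3 kept its call under all 13 alternatives. Without proximal replicate 1, 22 and 51 genes passed, and without proximal replicate 2, 40 and 19. A fit without 1 library leaves a region with 1 library, which is assumed to vary like the other region.

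The panel A genes chose the members, so their levels by region are a description with no test. The proximal minus distal log2 difference within members was 0.70 ± 0.21 for Frmd5, 0.51 ± 0.20 for Lrat, 0.27 ± 0.22 for Ntf3 and 0.35 ± 0.19 for Pde1c. Both proximal libraries were above both distal ones for Frmd5, Lrat and Pde1c, while the regions overlapped for Ntf3. For Cntnap3 the difference was -1.15 ± 0.44, and it was -0.0032 without distal replicate 2. Of 50 listed developmental genes, Hoxc6, a positional transcription factor, stood at 25.3, 24.1, 57.9 and 65.5 CPM, a difference of -1.36 ± 0.15 with an adjusted p of 0.128 by edgeR. Hoxa5, of the same family, ran the other way at 51.8, 65.8, 20.1 and 26.7 CPM, a difference of 1.26 ± 0.19 with an adjusted p of 0.301 by edgeR. Neither passed, and both were chosen after their values were seen.

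A test of whether the difference between members and panel B cells itself changed with region called 4 of 14430 genes higher (0.0277%) and 1 lower (0.00693%), with 859 at an unadjusted p under 0.05. The smallest adjusted p was that of Adamdec1 (chr14:68800829-68819544, minus strand). Members gave 5776 and 6965 CPM proximally and 6781 and 7759 distally, nearly level, while panel B cells gave 2242, 2704, 4036 and 4496, with the distal libraries higher. The interaction, on the log2 scale, was 0.62 ± 0.07 with an adjusted p of 9.4e-03 by edgeR, and it passed under all 12 alternatives. Tmtc2, a transmembrane O-mannosyltransferase, gave 0.76 ± 0.11, the teneurin Tenm3 0.70 ± 0.09 and Ror2, a receptor of Wnt5a, 0.69 ± 0.10. Each of these 3 had higher panel B levels distally and smaller changes in members, such as 920.3, 1262, 934 and 1203 in members and 292, 350.0, 426 and 598 in panel B cells for Tenm3. Ltbp2 gave -1.14 ± 0.16, members being at 12.1 and 9.77 proximally and 15.2 and 19.9 distally. The adjusted p of these 4 lay between 0.0417 and 0.0457, and their calls were lost under 5 to 8 of 12 alternatives. Panel B cells were chosen by the same rule, so the interaction compares both sides of the dividing line.

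The cecum and large intestine were not used to set the rule and give values only, with 1 library each. There the rule found 233 cecal cells and 182 large intestinal cells, but their median panel A sum was 4 UMIs, and 71.7% and 53.3% of them were at most 3 UMIs past the line. Lrat gave 4.18 and 0.515 CPM in these cells, Frmd5 11.5 and 2.58, and Cntnap3 0 in both, while Ntf3 gave 300.2 and 259 and Pde1c 258 and 257. The cells were thus picked by Ntf3 and Pde1c, and the Frmd5 and Lrat side of the subset was nearly undetected in them. Levels of these 2 genes in other cells of the cecum and large intestine are not given here. Mmp10 was also near 0 there, at 1.04 and 12.4, so the gate rested on Agt and Wnt4. Of the genes called higher in small intestinal members, 73.6% of 1532 lay on the higher side in the cecum too, where 51.2% of all tested genes did, and 76.2% of 1502 in the large intestine, where 55.0% did. For genes called lower the values were 68.3% of 1402 beside 48.8%, and 68.9% of 1362 beside 45%. Col15a1 gave 526 and 438 CPM in the cells the rule found there and 446 and 315 in panel B cells. Syt13 lay on the other side, at 124 and 132 against 153 and 138, as did Tacr1, at 10.4 and 3.61 against 1.49 and 1.97. P3h2, Bdkrb2 and Ntm did so in the large intestine, and Fabp1 was at 0 on both sides in both segments.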

How the data were processed

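The authors deposited raw UMI counts per gene and barcode, unfiltered, made with Cell Ranger 8.1.0 on mm39 per the submitters' processing notes. No cell annotation was used. Cells were filtered as stated in the report, hashtag UMIs were set apart, and doublets were kept in the main result and removed by hashtag in an alternative (a hashtag over 2.5 robust SDs). Gene coordinates on GRCm39 came from the GENCODE annotation. Raw counts were summed per library and subset and tested in R 4.3.3 with edgeR 4.0.16 (TMM, filterByExpr with a minimum count of 10, quasi-likelihood, Benjamini-Hochberg at 0.05), the library being a block between subsets. Alternatives were limma 3.58.1, DESeq2 1.42.0, RLE scaling, no filter, subtraction of 10% ambient RNA, cells thinned to 2500 UMIs, no hashtag doublets, a stricter panel rule, no library block, a replicate block and each library left out. The scripts were tested on counts drawn from the fitted means, with 200 genes changed 2-fold. Of these 200 genes the fits recovered 87.5% against panel B cells, 47% against telocyte-gated cells, 56% between regions and 55.5% for the interaction. The trial of the interaction held 13743 genes, filtered by subset alone, while its fit to the data tested 14430. Unchanged genes made up 11.2%, 9.62%, 18.8% and 7.5% of the calls in these 4 trials, in the order of the recovery values, above the 0.05 aimed at.

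The members and gene lists were chosen with earlier results of these data known, and no list is independent evidence of its direction. Named genes were those with the largest difference past the threshold, leaving out predicted genes. Per direction, up to 10 (panel B cells), 5 (telocytes), 8 (regions) or 4 (interaction) were taken, and of each list up to 4 over both directions together. For panel B cells, telocytes and regions, libraries could not overlap and the higher group needed at least 20 CPM (10 for regions). Family genes named beyond these were given for their role, and 2 genes are not reported here. Counting intervals are exact at 95%, and depth limits genes under a few CPM.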

Additional observations from a re-analysis of the deposited data

Results flagged for a closer look

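In 5 genes the difference between members and panel B cells depended on region by the test of that interaction. The proximal minus distal change of the log2 difference was 0.62 for Adamdec1, 0.76 for Tmtc2, 0.70 for Tenm3, 0.69 for Ror2 and -1.14 for Ltbp2. In proximal and distal panel B cells Tmtc2 averaged 213 and 382 CPM, while members averaged 697 and 734. For Ror2 the averages were 59.6 and 120 in panel B cells and 141 and 177 in members. Both directions of difference were kept in the 2 regions, and it was the size that changed.

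The rule also picked 233 cecal and 182 large intestinal cells, which no comparison of regions used. With 1 library each, they were not tested. Their Frmd5 and Lrat levels were far below those of small intestinal members, as given above.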

How the results depend on the processing

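Of the named values against panel B cells, 1104 of 1177 kept their direction and side of the threshold, 70 in 32 genes lost the call and 3 gained it. Among genes named above, leaving out 1 library ended the call of Wnt5a (without distal replicate 2), Procr (either proximal library), Acta2 (proximal replicate 1 or distal replicate 1), Bmp4 (proximal replicate 1), Krt8 and Egr3 (any but distal replicate 1, without which neither was tested) and Artn (any). Calls against panel B cells went from 1554 higher and 1447 lower to 738 and 649 with cells thinned (10033 genes tested) and to 606 and 522 with no library block, and DESeq2 called 946 lower. The range on leaving out 1 library was 1180 to 1467 higher and 1085 to 1269 lower. Against telocyte-gated cells thinning gave 357 and 299 (3273 genes tested), and leaving out 1 library 471 to 655 and 601 to 778. All 124 named values there were unchanged in call.

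Between regions of members, calls were 4 higher and 11 lower with DESeq2, 70 and 71 with no filter, 3 lower with thinning and 2 lower under the stricter panel rule. Leaving out 1 library gave 0 to 40 higher and 2 to 51 lower. With a replicate block 59 were higher and 73 lower, sharing the 1 gene of the fit without it. Same-numbered libraries correlated in their deviations at r = 0.25 over 13542 genes, but they share only a number and a hashtag set. For the interaction, calls were 9 and 3 with DESeq2, 132 and 56 with no filter, 2 and 0 with ambient RNA subtracted and 8 and 3 without hashtag doublets, and 0 lower with limma, thinning or the stricter rule. Leaving out 1 library gave 2 to 75 higher and 2 to 49 lower, the largest without proximal replicate 1. Ror2 turned to -0.0093 under thinning. Of 60 interaction values 35 kept their call and 24 lost it. The cause of these changes was not tested.

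The proximal minus distal share difference of 2.14 percentage points was 1.67 with thinned cells, 2.08 without hashtag doublets and 1.77 under the stricter rule, and 0.581 to 3.70 on leaving out 1 library, lowest without proximal replicate 2 and highest without proximal replicate 1.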
